A study of Homo sapiens with 5 samples.

Results

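Immune checkpoint ligands and natural killer (NK) cell ligands were examined in NCI-H209, an established cell line from a human small cell lung cancer (SCLC), after co-culture with human brain microvascular endothelial cells (HBMECs). The group held 10 genes taken by symbol from the 64837 entries of the count tables: CD274, PDCD1LG2, CD276, CD47, PVR, NECTIN2, MICA, MICB, ULBP2 and ULBP3. Of these, 7 passed the filter on low counts and were tested, and 3 (PDCD1LG2, MICA and MICB) had no count on their own strand in any library. The control group was 3 libraries of NCI-H209 cells labelled as untreated. The co-cultured group was 2 libraries of NCI-H209 cells kept for 24 h in wells whose Transwell insert carried HBMECs, so that the cell types shared medium through a porous membrane without lying on each other. NCI-H209 cells of both groups grew in RPMI-1640 with fetal bovine serum, while the medium of the HBMECs also held Nu-serum. The medium in the insert during co-culture, and whether the control wells held an empty insert, are not given in the sources used here. An effect of medium or insert therefore cannot be told apart from that of the HBMECs. All results come from a single cell line, and nothing in the labels says whether replicates were separate cultures, so the p-values measure the spread between these libraries, which may be technical.

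Cells carry ligands on their surface that T cells, NK cells and macrophages read before they attack. CD274 (PD-L1) and PDCD1LG2 (PD-L2) bind the receptor PD-1 and restrain T cells, CD276 (B7-H3) is a related B7 molecule that many tumors carry, and CD47 binds SIRPA on macrophages and restrains phagocytosis. PVR and NECTIN2 bind the activating receptor DNAM-1 and the inhibitory receptor TIGIT, while MICA, MICB and the ULBP proteins are stress-induced ligands of NKG2D, an activating receptor of NK cells. SCLC is known for low MHC class I levels, and PD-L1 is a target of antibody therapy in this tumor.

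The DNA just before the start of CD274, ULBP2 and NECTIN2, the ligand genes with the largest changes among those that passed the test, is shown because interferon-responsive elements before CD274 are well known. Sequences are from RefSeq on GRCh38.p14 and end where GENCODE release 29 places the first start of the gene, and 9 of the 10 genes were in that table. A window of 250 bases before the RefSeq start was searched on both strands for the ISRE (GAAA, any 2 bases, then GAAA), the GAS (TTCNNNGAA), the AP-1 site (TGANTCA), the core of the hypoxia response element (ACGTG) and a pair of inverted heat shock units (GAANNTTC). Capitals mark matches. The CD274 sequence lies at chr9:5450292-5450502 on the plus strand, the ULBP2 sequence at chr6:149941764-149941999 on the plus strand and the NECTIN2 sequence at chr19:44846047-44846174 on the plus strand.
CD274: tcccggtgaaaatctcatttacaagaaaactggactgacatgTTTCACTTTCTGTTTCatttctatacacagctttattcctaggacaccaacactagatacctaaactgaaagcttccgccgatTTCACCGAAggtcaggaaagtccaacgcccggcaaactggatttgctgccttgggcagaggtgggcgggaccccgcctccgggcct
ULBP2: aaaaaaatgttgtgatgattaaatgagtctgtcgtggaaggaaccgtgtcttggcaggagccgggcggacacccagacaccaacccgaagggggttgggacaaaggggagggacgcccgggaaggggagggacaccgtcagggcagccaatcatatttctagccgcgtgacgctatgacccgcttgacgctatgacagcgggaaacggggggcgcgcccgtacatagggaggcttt
NECTIN2: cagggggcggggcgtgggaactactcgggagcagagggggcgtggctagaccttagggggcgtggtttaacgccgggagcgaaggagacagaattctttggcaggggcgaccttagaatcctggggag
The window of CD274 held 2 ISRE matches, TTTCACTTTC and TTTCTGTTTC on the minus strand, which overlap each other, and 1 GAS match, TTCACCGAA. No ISRE or GAS match was found in the windows of the other 8 genes. Across 35116 promoters of the same table, 3.02% held an ISRE match and 6.57% a GAS match. The hypoxia response core, which 18.5% of promoters held, was matched once each before CD47, MICB and ULBP3 and in 1 of the 2 windows of CD276, and it was not matched before CD274, ULBP2 or NECTIN2. MICA and MICB each held the heat shock pair GAATTTTC, present in 5.78% of promoters, and the AP-1 site, present in 6.57%, was matched before none of the 9 genes. A match is a run of letters and was not shown to be bound in these cells.

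Totals on genes ran from 15457071 to 19157348 counts per library, and 92.3% to 93.1% of counts fell on the sense strand. A count of 3, used as the floor, corresponds to 0.157 to 0.194 CPM (counts scaled to library size), and this limit covers counting error only. The share of reads left unmapped was 8.13% to 8.48% in control against 15.9% and 16.8% in co-cultured cells, and their part in the results was not tested. The neuroendocrine markers of the cell type were present, and 13 of 14 were tested. Their summed levels were 2461 to 3106 CPM in control and 3266 to 3437 CPM in co-cultured libraries. CHGA had at most 1 count, and whether its reads were lost in mapping was not tested. By the test used throughout, 4 of these markers were higher after co-culture and 2 lower. Of all genes tested, 18.4% were higher and 15.0% lower, and these shares apply to each marker list here. Endothelial markers were low in both groups. Sums over 18 genes were 18.0 to 27.5 CPM in control and 23.8 to 24.2 CPM in co-cultured libraries. CDH5 had 11, 8 and 4 counts in control against 7 and 11, and PLVAP had 0 counts. Levels within the list were uneven, with VWF at 159, 75 and 87 counts in control against 87 and 90. KDR had 37, 27 and 2 counts against 12 and 4, and TEK had 31, 24 and 0 against 6 and 3. Without co-cultured replicate 1 the endothelial list held 0 calls and without co-cultured replicate 2 it held 1. With all libraries ESAM and ICAM2 (log2 fold change 0.45, adjusted p = 0.0367) were called higher by edgeR's quasi-likelihood test. ESAM, at 3, 4 and 6 counts against 21 and 14, passed the filter only through the co-cultured libraries, and 1 call was left with at least 10 counts in every library. In all, 7 of 18 markers had at most 3 counts in every library. Leukocyte markers summed to 1.94 to 2.50 CPM in control and 6.12 to 6.47 CPM in co-cultured libraries, mostly through ITGAM (log2 fold change 2.52, adjusted p = 0.000236), and PTPRC had at most 1 count.

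Among the 7 ligand genes tested, 4 were higher in co-cultured cells at an adjusted p under 0.05, namely ULBP2, CD274, NECTIN2 and CD276, and 0 were lower. In the comparison of all 20360 genes tested by edgeR's quasi-likelihood test, 18.4% were higher and 15.0% were lower at this threshold. ULBP2 and CD274 also passed a limit of size, a change of more than 1 on the log2 scale together with a p under 0.05 before adjustment. The study's own limit for DEGs names a fold change above 1 and a p under 0.05 without giving the scale or the adjustment, and it was read here in this way. Of all genes 5.44% passed this limit upward and 5.01% downward, and 0 ligand genes passed it downward. Both co-cultured libraries lay above all 3 control libraries for 6 of the 7 genes, where 29.4% of all genes did so, and CD47 was the exception. For 0 ligand genes did both co-cultured libraries lie below all controls, where 30.0% of all genes did so. The log2 fold change (log2FC) had a median of 0.54 over the 7 genes and of -0.03 over all genes tested. Of ligand genes that fell, edgeR counted 0 also at an unadjusted p under 0.05, and DESeq2 and edgeR's exact test called 0. Because whole cultures were measured, a higher level in every cell and a larger share of cells with the transcript cannot be told apart.

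**Figure D1:**
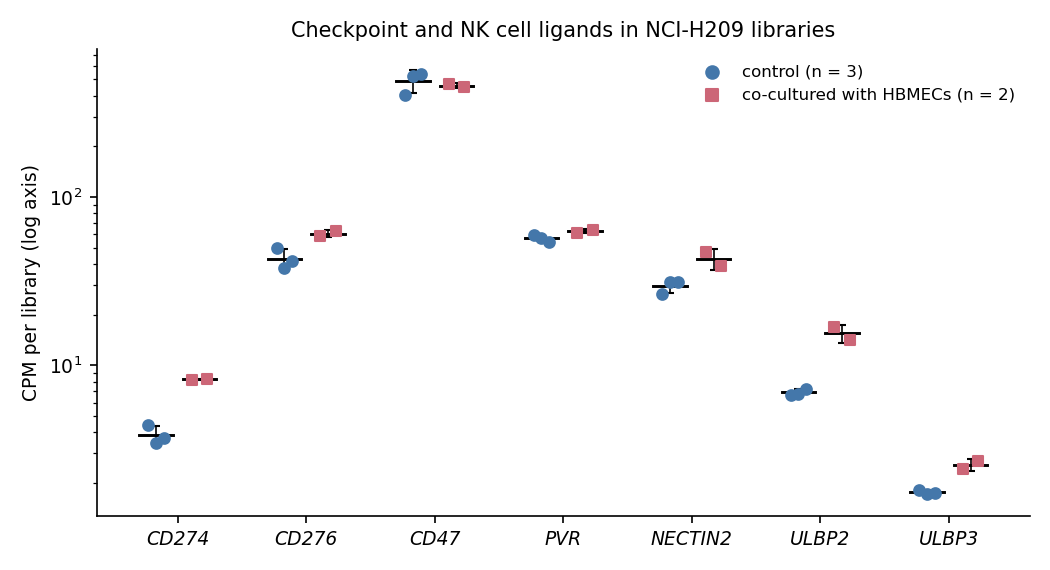
Level of the 7 tested ligand genes in each library, in CPM on a log axis, with control libraries as circles and co-cultured libraries as squares. Black lines are group means with SD (n = 3 and n = 2), and both squares lie above all circles for every gene but CD47.

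**Figure D2:**
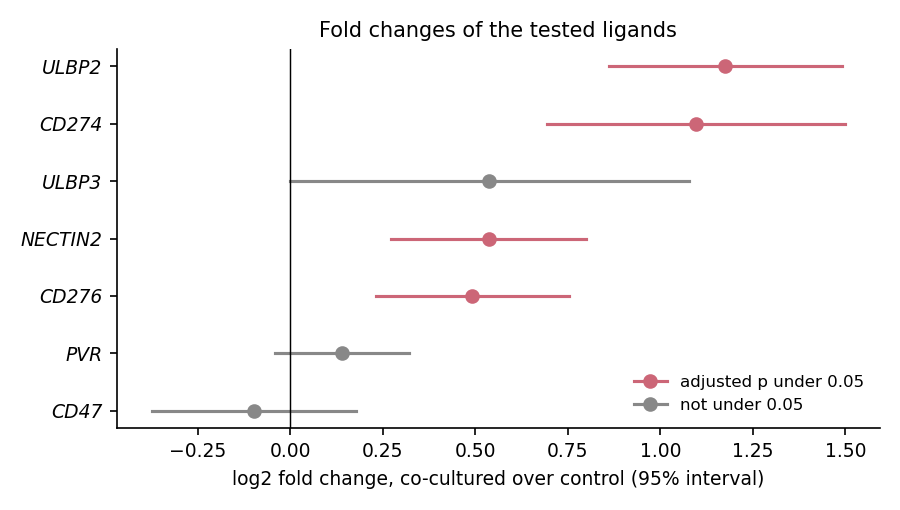
Change on the log2 scale, co-cultured relative to control cells, for the 7 tested ligand genes, with 95% intervals from edgeR's quasi-likelihood fit. Red marks the 4 genes with an adjusted p under 0.05, of which ULBP2 (1.18) and CD274 (1.10) have the largest values.

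CD274, the gene of PD-L1, lies on chromosome 9 from 5450503 to 5470566 on the plus strand (ENSG00000120217.13). Its counts were 83, 62 and 72 in control cells against 150 and 125 after co-culture. Scaled to library size, these were 4.41, 3.43 and 3.69 CPM against 8.20 and 8.26 CPM. Both co-cultured libraries lay well above the controls and close to each other. The mean was 3.84 ± 0.511 CPM in control (SD, n = 3) and rose to 8.23 ± 0.0414 CPM after co-culture (SD, n = 2), giving a log2FC of 1.10 (SE 0.18, edgeR adjusted p = 0.00186), or 2.14-fold. With any library left out, the log2FC ran from 1.03 to 1.21 with an adjusted p of at most 0.0261. Its opposite strand held 3, 4 and 3 reads in control against 2 and 0 after co-culture, or 2.38% of all its reads, so the rise was on the strand of the gene.

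PDCD1LG2, the gene of PD-L2, lies downstream of CD274 on chromosome 9 from 5510570 to 5571254 on the same strand (ENSG00000197646.7). It had 0 sense counts in all 5 libraries, which allows up to 3 counts per library, and it could not be tested. All of its reads were on the opposite strand, with 14, 20 and 17 in control against 6 and 7 after co-culture. Scaled to all opposite-strand counts of each library, these were 9.23, 13.9 and 10.9 CPM in control and 4.26 and 6.08 CPM in co-cultured cells, so the groups did not overlap. No gene annotated on either strand overlaps PDCD1LG2 in release 29. Counting without regard to strand would give these reads to PDCD1LG2, although none has the orientation of PD-L2 mRNA, and their origin was not tested.

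**Figure D3:**
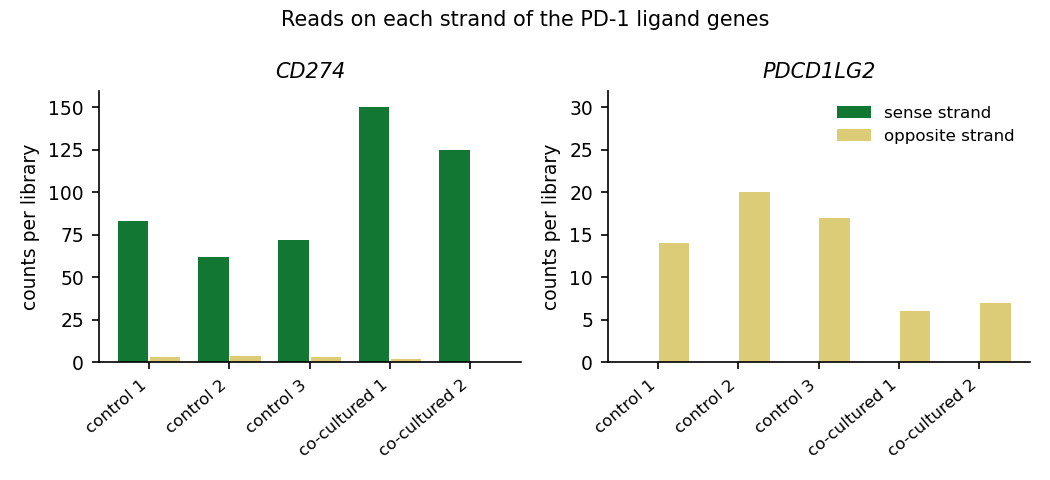
Counts on the sense and the opposite strand of CD274 and PDCD1LG2 in each library, with a separate linear axis for each gene. CD274 reads are on the sense strand, and all PDCD1LG2 reads are on the opposite strand, with 14 to 20 in control against 6 and 7 after co-culture.

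Most genes around this pair on chromosome 9 did not pass the test. Of 10 neighbours, 8 were tested, of which JAK2 was higher and RCL1 lower, where 33.4% of all genes were called in either direction. JAK2, a kinase of cytokine receptors that is also on the list of CD274 regulators described further on, was at 31.7, 35.6 and 35.1 CPM in control and 44.9 and 46.2 CPM in co-cultured cells, giving a log2FC of 0.42 (adjusted p = 0.00732). RCL1, a factor of ribosome assembly, had a log2FC of -0.63 (edgeR adjusted p = 0.00248). PLGRKT, KIAA2026, ERMP1, RIC1, RLN1 and RLN2 were not called and had log2FC values from -0.11 to 0.28, and INSL4 and INSL6 had at most 1 count. The median over the 8 was 0.10. Without co-cultured replicate 1 neither JAK2 nor RCL1 was called, and without co-cultured replicate 2 the list held 1 call.

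CD276, the gene of B7-H3, lies on chromosome 15 from 73683966 to 73714518 on the plus strand (ENSG00000103855.17). It had 49.6, 37.6 and 41.7 CPM in control against 58.4 and 62.5 CPM after co-culture. The groups did not overlap, and control replicate 1 came closest to the co-cultured libraries. Its mean was 43.0 ± 6.07 CPM in control (SD, n = 3) and rose to 60.5 ± 2.87 CPM after co-culture (SD, n = 2), giving a log2FC of 0.49 (SE 0.12, edgeR adjusted p = 0.0105). The call was lost without co-cultured replicate 1 (adjusted p = 0.0567) and without co-cultured replicate 2 (adjusted p = 0.108), with log2FC values of 0.55 and 0.45.

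CD47 was the most abundant of the ligand genes and did not pass the test. It lies on chromosome 3 from 108043094 to 108091862 on the minus strand (ENSG00000196776.15). Its levels were 405, 526 and 541 CPM in control against 469 and 448 CPM after co-culture, so the co-cultured libraries lay within the range of the control libraries. The log2FC was -0.10 with a 95% interval from -0.38 to 0.18 (edgeR adjusted p = 0.574). Control replicate 1 was the lowest library, and without it the log2FC was -0.22 with an adjusted p of 0.00453, so that 1 library decided this call.

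PVR, also called CD155, lies on chromosome 19 from 44643798 to 44663583 on the plus strand (ENSG00000073008.14). Its levels were 59.3, 57.0 and 53.9 CPM in control against 61.4 and 63.7 CPM after co-culture, close together and without overlap. The log2FC was 0.14 with a 95% interval from -0.04 to 0.32 (edgeR adjusted p = 0.208). Without control replicate 1 the log2FC was 0.18 with an adjusted p of 0.0391. The last 1306 bases of PVR overlap CEACAM19 on the same strand, and reads on exons of both count for neither. CEACAM19 held 200 to 343 counts per library.

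NECTIN2, also called CD112, lies on the same chromosome from 44846175 to 44889228 on the plus strand (ENSG00000130202.9). It had 26.5, 31.2 and 31.2 CPM in control against 47.2 and 38.7 CPM after co-culture. The groups did not overlap, and the co-cultured libraries differed from each other more than the control libraries did. The mean was 29.7 ± 2.70 CPM in control (SD, n = 3) and rose to 42.9 ± 5.98 CPM after co-culture (SD, n = 2), giving a log2FC of 0.54 (SE 0.12, edgeR adjusted p = 0.00759). Without co-cultured replicate 1, the higher library, the value was 0.39 and the call was lost (adjusted p = 0.122). An antisense gene, AC011481.2, overlaps the end of NECTIN2 and had 0 counts on its own strand in every library, so it took no part in the sense counts. The ratio of PVR to NECTIN2 in CPM was 2.23, 1.83 and 1.73 in control against 1.30 and 1.65 after co-culture.

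The NKG2D ligand ULBP2 had the largest log2FC among the 10 genes. It lies on chromosome 6 from 149942000 to 149949235 on the plus strand (ENSG00000131015.4). It had 125, 122 and 142 counts in control against 309 and 215 in co-cultured libraries, or 6.65, 6.75 and 7.27 CPM against 16.9 and 14.2 CPM. The control libraries lay close together and far below both co-cultured libraries. The mean was 6.89 ± 0.335 CPM in control (SD, n = 3) and rose to 15.5 ± 1.90 CPM after co-culture (SD, n = 2), giving a log2FC of 1.18 (SE 0.14, edgeR adjusted p = 0.000385), or 2.26-fold. With any library left out, the log2FC ran from 1.05 to 1.30 with an adjusted p of at most 0.0127. Of 1250 words of 100 bases in its transcripts, 149 (11.9%) also stand in transcripts of another gene, mostly RAET1L, so a part of its reads may not have been counted.

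ULBP3 was low and did not pass the test. It lies on chromosome 6 from 150063150 to 150069095 on the minus strand (ENSG00000131019.10). It had 34, 31 and 34 counts in control against 44 and 41 in co-cultured libraries, or 1.81, 1.71 and 1.74 CPM against 2.40 and 2.71 CPM. The groups did not overlap, and the log2FC was 0.54 with a 95% interval from -0.0009 to 1.08 (edgeR adjusted p = 0.114). The interval spans changes from about none to more than that of NECTIN2, and 6.86% of its 100-base words are shared with RAET1K.

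Of the other genes of this family, ULBP1 was the most abundant and was higher in co-cultured cells, and it was the 1 gene of 4 that could be tested. It had 29.6, 26.5 and 22.7 CPM in control against 59.4 and 62.9 CPM after co-culture, giving a log2FC of 1.22 (SE 0.11, edgeR adjusted p = 0.000119). RAET1L had 0 counts in all control libraries and 6 counts in each co-cultured library. Against a floor of 3 counts in each control library its mean co-cultured level was 2.27-fold higher. This value leaves out the counting error of the 6 counts, so it is not a lower bound, and RAET1L was not tested. Its transcripts share words with ULBP2 as given above. RAET1E and RAET1G had at most 3 counts in every library.

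MICA and MICB, which lie near each other in the MHC region of chromosome 6, were listed at 0 in every library on both strands. MICA spans 31399784 to 31415315 (ENSG00000204520.12) and MICB spans 31494881 to 31511124 (ENSG00000204516.9), both on the plus strand. This 0 cannot be read as absent expression, because genes that every cell uses were at 0 there too, among them TUBB, ABCF1 and DDX39B. Of 103 protein-coding genes that start within 1 Mb of MICA, 81 (78.6%) had 0 counts and 91 (88.3%) had at most 3 counts in every library. Beyond 5 Mb on the same chromosome, 157 of 773 protein-coding genes (20.3%) had at most 3 counts. A further entry named MICB, outside the gene set of release 29, had 7, 3 and 7 counts in control against 5 and 7 in co-cultured libraries, too few for the filter, and the ranges overlapped. No further entry was named MICA, and the 5518 entries outside that gene set that have no name in the files had at most 1 count each in any library. Reads that mapped to several places, 7.05% to 7.75% of each library, were not counted on genes. How many of them came from MICA or MICB was not tested. Neither gene shared a 100-base word with another gene of release 29, each other included. That search read transcripts of release 29 only, so it could not find copies on other sequences and does not bear on reads lost to them.

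**Figure D4:**
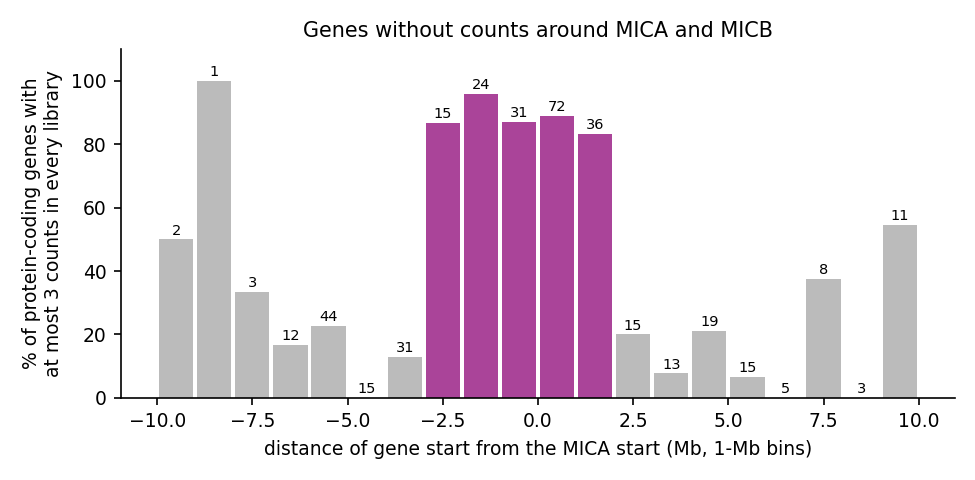
Share of protein-coding genes with at most 3 counts in every library, by distance of the gene start from the start of MICA in bins of 1 Mb, with the number of genes above each bar. The bins from -3 to 2 Mb, in purple, hold shares of 83.3% to 95.8%, and the next bins on either side hold 12.9% and 20%.

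Levels of the genes were set side by side only after division by exon length. In control cells CD47 stood highest at 59.7 ± 9.04 CPM per kb of exon (SD, n = 3), followed by PVR at 16.1 ± 0.766, NECTIN2 at 7.91 ± 0.721, CD276 at 7.75 ± 1.10, ULBP2 at 5.11 ± 0.249, ULBP3 at 1.78 ± 0.0489 and CD274 at 0.935 ± 0.124 CPM per kb. NECTIN2 and CD276 did not differ beyond their spread. In co-cultured cells CD47 stood at 55.7 ± 1.86 and PVR at 17.8 ± 0.475 CPM per kb (SD, n = 2). ULBP2, at 11.5 ± 1.41 CPM per kb (SD, n = 2), stood beside NECTIN2 at 11.5 ± 1.60 and CD276 at 10.9 ± 0.518, and these levels did not differ beyond their spread. CD274 remained the lowest of the 7 genes at 2.0 ± 0.0101 CPM per kb, under ULBP3 at 2.59 ± 0.217. These are levels and not differences, and the exon length includes exons of all annotated transcripts.

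Among genes known to act on the transcription of CD274, all those tested were higher. They were listed with earlier results of these data known, so their number is a description only. The list of interferon receptor, JAK-STAT, IRF, NF-kB, HIF-1 and related genes held 16 genes, of which 14 were tested and all 14 passed the test as higher, where 18.4% of all genes did, with 0.65 as the median log2FC. BCL3, a nuclear partner of NF-kB, was at 9.57, 9.46 and 8.45 CPM in control against 35.7 and 33.8 CPM after co-culture, giving a log2FC of 1.93 (adjusted p = 2.08e-05). STAT3 and HIF1A had log2FC values of 1.27 and 1.08. IRF1, the factor that binds the ISRE of CD274 after interferon, was at 29.7, 32.7 and 26.5 CPM in control against 70.1 and 65.9 CPM after co-culture, giving a log2FC of 1.20 (adjusted p = 8.12e-05). Both interferon gamma receptor genes were higher, IFNGR1 with 0.63 and IFNGR2 with 0.81. IRF9, on chromosome 14, was listed at 0 in every library. Whether its reads were lost in mapping was not tested, so this cannot be read as absent expression. MYC had 16, 6 and 4 counts in control against 2 and 2 in co-cultured libraries and was not tested. IRF1, IFNGR1 and IFNGR2 were named after their values were seen. Without co-cultured replicate 1 and without co-cultured replicate 2 the list held 9 calls each, and a link of these genes to the level of CD274 was not tested.

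Genes that act on the ligand proteins at the surface moved in both directions. For this list and those that follow, the shares over all genes tested are 18.4% higher and 15.0% lower, and a list near these shares shows nothing particular to it. Of 15 genes for retention, glycosylation and shedding, 13 were tested, 6 were higher and 1 was lower, with a median log2FC of 0.27. B3GNT3, a glycosyltransferase that modifies PD-L1, was at 0.957, 0.719 and 0.768 CPM in control against 3.39 and 2.97 CPM after co-culture, giving a log2FC of 1.96 (edgeR adjusted p = 0.000851). TMUB1 had 0.53. CMTM6, which keeps PD-L1 at the surface, had 0.39 (adjusted p = 0.0258) and CMTM4 had 0.31 (adjusted p = 0.0391), both named after their values were seen. ADAM10, a protease that sheds NKG2D ligands, fell by 0.44 on the log2 scale (adjusted p = 0.00377), from 410, 367 and 375 CPM to 287 and 278 CPM. ADAM17 (0.13, adjusted p = 0.188) and QPCTL, which modifies CD47 (-0.47, adjusted p = 0.0867), did not pass the test and were likewise named after their values were seen. The list held 3 calls without co-cultured replicate 1, 2 without co-cultured replicate 2 and 4 without control replicate 2 or 3.

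Further B7 and checkpoint ligands were mostly low. Of 21 genes, 9 were tested, 2 were higher and 1 was lower, with a median log2FC of 0.14, and 7 had at most 3 counts in every library. VSIR, the gene of the checkpoint molecule VISTA, had 2, 5 and 5 counts in control against 17 and 13 in co-cultured libraries. It passed the filter only through the group in which it was high, so its call carries no weight, and under a filter of 10 counts in each of the 5 libraries this list held 2 calls. LGALS9, a ligand of TIM-3, had 0.79 (adjusted p = 0.0416). CD24, a ligand of Siglec-10 on macrophages, fell by 0.53 on the log2 scale (edgeR adjusted p = 0.0460), from 975, 607 and 657 CPM to 506 and 524 CPM, with control replicate 1 the highest library. Without either co-cultured library, left out in turn, the list held 0 calls.

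Among 7 further nectins and nectin-like molecules, 6 were tested and 2 were higher, with a median log2FC of 0.39. NECTIN3 was at 23.1, 29.6 and 28.2 CPM in control against 44.7 and 41.6 CPM after co-culture, giving a log2FC of 0.68 (edgeR adjusted p = 0.00238). CADM4 had 0.46. Of 14 ligands of other NK cell receptors and adhesion molecules, 8 were tested and 3 were higher, with a median of 0.27. ICAM1, which binds the integrin LFA-1 of NK cells and T cells, had 6, 5 and 0 counts in control against 33 and 35 in co-cultured libraries. It likewise passed the filter only through the group in which it was high, so its call carries no weight, and under a filter of 10 counts in each of the 5 libraries this list held 2 calls. CDH1 and ICAM2 had 0.48 and 0.45. HLA-E, HLA-G and BAG6 lie in the MHC region and had 0, 0 and at most 9 counts per library, so that the limit given for MICA and MICB holds for them too. The nectin list held 1 call without control replicate 2 or 3 or either co-cultured library, and the list of NK cell ligands held 1 call without co-cultured replicate 1 and 2 calls without co-cultured replicate 2, against 5 calls without control replicate 1.

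Of 10 genes of phagocytosis signals beside CD47, 7 were tested, 1 was higher and 1 lower, with a median log2FC of -0.03. STC1, a secreted glycoprotein that holds back the phagocytosis signal calreticulin, was at 12.3, 19.2 and 26.1 CPM in control against 178 and 130 CPM after co-culture, giving a log2FC of 3.00 (edgeR adjusted p = 6.66e-05), and CD24 was the gene that fell. Without either co-cultured library, left out in turn, 1 call was left. A further list held 15 genes of DNA damage, heat shock and transcriptional or chromatin regulation known to act on NKG2D ligands. Of these, 12 were tested, 1 was higher and 4 were lower, with a median log2FC of -0.14. The gene called higher was HDAC3, a histone deacetylase, and no DNA damage or heat shock gene was called higher. HDAC3 had a log2FC of 0.41, ATM of -0.37 and ATR of -0.34, with edgeR adjusted p-values of 0.00884, 0.0127 and 0.0155. HSF1, HSPA1A and HSPA1B were listed at 0 or had at most 1 count, and the last pair lies in the MHC region. HSF1 lies on chromosome 8. Whether its reads were lost in mapping was not tested, so its counts cannot be read as absent expression. This list held 0 calls when either co-cultured library was left out, 3 calls without control replicate 2 and 9 calls without control replicate 1.

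Receptors for these ligands were low. Of 10 genes 3 were tested and 0 were called by edgeR's quasi-likelihood test (unstranded counts gave 1 call), and 6 had at most 3 counts in every library, among them PDCD1, TIGIT and KLRK1. CD226, the gene of DNAM-1, had 48 to 66 counts in control against 70 and 62 in co-cultured libraries (log2FC 0.33, adjusted p = 0.269).

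**Figure D5:**
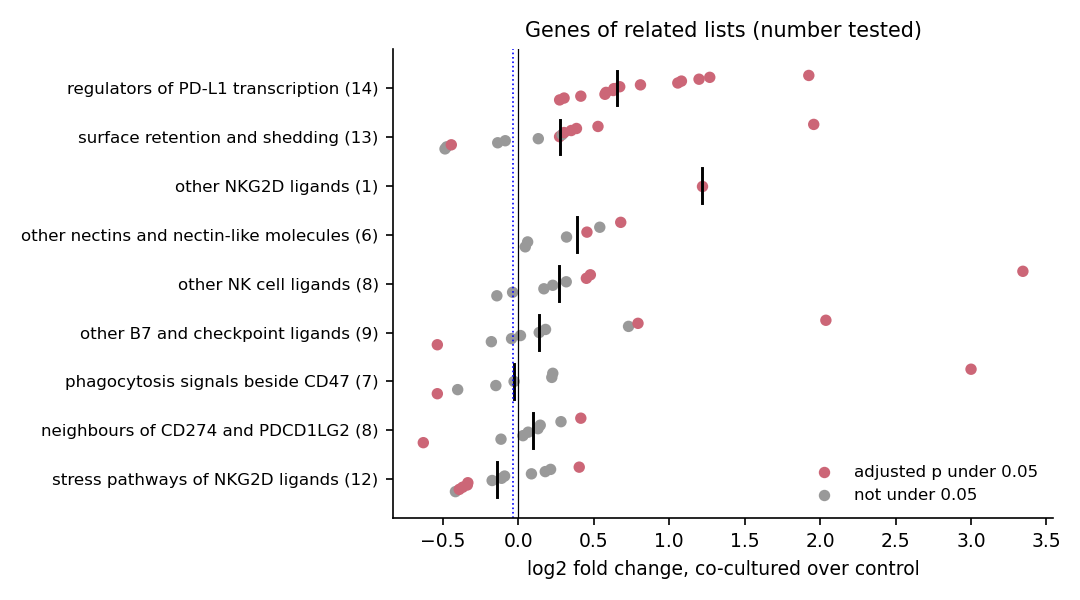
Change on the log2 scale, co-cultured relative to control cells, for the tested genes of 9 lists related to the ligands, with the number tested in parentheses. Black bars are list medians, the dotted line is the median of all genes tested (-0.03), and all 14 tested regulators of PD-L1 transcription lie above 0 in red (adjusted p under 0.05). The rightmost red points of the NK cell ligands (ICAM1) and the B7 ligands (VSIR) passed the filter only through the co-cultured libraries.

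The genes whose pattern over the 5 libraries was most like that of ULBP2, by the root mean square difference of log2 CPM centred on the mean of each gene, were GATA6, GAP43 and OLFM3 among 12838 protein-coding genes with a mean of at least 1 CPM. The differences were 0.0167, 0.0220 and 0.0405 on the log2 scale. OLFM3 was at 5.85, 5.92 and 6.30 CPM in control against 14.0 and 12.9 CPM after co-culture. With 5 libraries in 2 groups this likeness is mostly that of the fold change, 1.16 for GATA6, 1.15 for GAP43 and 1.16 for OLFM3.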

How the data were processed

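RNA-Seq of NCI-H209 cells was deposited as raw counts per gene for each of 5 libraries, 3 control and 2 co-cultured. Per the labels, the libraries were rRNA-depleted and directional, base calls were made with CASAVA 1.8, and the submitters' processing notes name STAR 2.6.1b, DESeq2 and GRCh38. The entries included the 58780 genes of GENCODE release 29, and names of 539 further entries were taken from the authors' table of the comparison. That table holds means, fold changes, standard errors, statistics and p-values of the authors, which were not used. STAR counts reads with a single best place, so genes with copies lose reads. Sense-strand counts were filtered with filterByExpr, normalized by TMM and tested with the quasi-likelihood test of edgeR 4.0.16 in R 4.3.3, with Benjamini-Hochberg adjustment over 20360 genes. CPM are counts scaled to the TMM-adjusted library size. Each SE is the absolute log2FC over the square root of its F statistic. An exact permutation of 3 against 2 libraries cannot give a p under 0.1, so none was run. Replicates of every pair differed by more than sampling noise (chi-square per degree of freedom 4.59 to 18.1). The pairs with control replicate 1 gave 17.85 and 18.07, against 6.34 for control replicates 2 and 3. On simulated counts, the steps called 73 of 100 genes given a log2 change of 1 and 44 of 100 given 0.6. Of 20160 genes given no change, 18 were called. A gene that did not pass the test may therefore still have changed. The genes, the 13 other lists and the tests were chosen with earlier results of these data known. Genes named in a list are its 3 with the smallest p among those called, beside neighbours and NKG2D ligands, and genes named beyond this were chosen after their values were seen. No ligand gene was called lower, so likeness was computed for ULBP2 alone. The alternatives are given in the closing section. Plots used matplotlib 3.10.9.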

Additional observations from a re-analysis of the deposited data

How the results depend on the processing

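ULBP2 and CD274 kept their direction and an adjusted p under 0.05 under all 15 alternatives, with log2 fold changes from 1.05 to 1.30 and from 1.02 to 1.21. NECTIN2 (0.39 to 0.67) kept its call in 14 and CD276 (0.41 to 0.61) in 13 of them. ULBP3 (0.46 to 0.63) was called in none, and CD47 and PVR were called only without control replicate 1. With each library left out in turn, the number of ligand genes called higher ran from 2 to 5, the number called lower from 0 to 1, and the number of genes of the other lists called from 20 to 61, where all 5 libraries gave 4, 0 and 45. The lowest counts came without co-cultured replicate 1 (2 ligand genes and 20 list genes) and without co-cultured replicate 2 (22 list genes), settings in which a single library stands for the co-cultured group and is assumed to vary like the control libraries. The replicate block gave 4 ligand genes higher, 0 lower and 36 list genes. It changed no call of a ligand gene and left 1 call among nectins and 3 in retention and shedding. The labels give both groups replicate numbers, which were not taken as pairs. Deviations of same-numbered libraries from their group means had correlations of -0.146 and -0.082 across genes. With 2 co-cultured libraries these deviations mirror each other, so the correlations cannot settle whether libraries were paired. DESeq2 called 43 list genes, at least 1 count in any library gave 52, and upper-quartile normalization gave 43. Neuroendocrine calls ran from 3 to 10, unstranded counts left 1 phagocytosis call, and the filter of 1 count in any library gave 2 calls among the other NKG2D ligands. Summing the entries of a symbol changed no value of the 7 genes tested, since MICB alone had a further entry. ULBP3 had 31 to 44 counts per library, and the reads of MICA, MICB and PDCD1LG2 allow no comparison.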
